A study of Mus musculus with 9 samples.

Results

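Gene expression was compared between 3T3-L1 cells kept for 2 days in adipogenic medium with chickpea and cells kept for 2 days in the same medium without it. The comparison covers the 321 metabolic genes of the array, of which 215 had a spot brighter than 10 intensity units on at least 1 of the 2 arrays. Of these, 187 passed that limit on both arrays, 15 on the chickpea array alone and 13 on the control array alone. 3T3-L1 is a mouse preadipocyte line that becomes adipocytes when a confluent culture receives hormonal inducers. In the chickpea culture the medium held 0.5% CP, which the sample labels call chickpea extract, and its preparation is not described. The control culture received additive-free medium. Both cultures were confluent preadipocytes in DMEM with 10% FBS and the inducers methylisobutylxanthine (0.5 mM), dexamethasone (10 µM) and insulin (5 µg/ml). A culture harvested before induction (day 0), and later cultures of both media on days 4, 6 and 8, belong to the same series of 9 samples and are used here only where stated. Each medium and day had 1 array, so no difference on day 2 has a replicate check or a test, and culture, array and medium cannot be told apart.

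Adipogenic induction works in steps. Glucocorticoid and cAMP signals first induce the transcription factors Cebpb and Cebpd, which switch on Pparg and Cebpa, and these then drive the genes of lipid uptake, storage and secretion. Day 2 is the time at which the inducers are withdrawn and the late genes begin to appear. Cells short of amino acids or under stress of the endoplasmic reticulum use another transcription factor, ATF4, whose known mouse targets include Trib3, Pck2, Eif4ebp1 and Vegfa.

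The chickpea array was the brighter of the pair, with a median metabolic gene at 83 units, against 47 units on the control array. The number of metabolic genes above the limit was nearly the same, at 202 (62.9%) with chickpea and 200 (62.3%) in control medium. Units are background-subtracted scanner intensity, and levels of different genes are not comparable because each gene has its own probe. Differences are given on the log2 scale after quantile scaling of the 9 arrays, which gives every array the same distribution of values. A gene with similar units on both arrays therefore comes out lower with chickpea. After scaling, 186 genes were measured on both arrays, and 3 (Pfkfb1, Thrb and Sfrp2) were at the floor on both. For 26 genes 1 side was not above the limit or was at the floor. Their difference is treated as a bound, which holds for this scaling and limit. In the gene lists, measured members are those above the limit on at least 1 of the 2 arrays, so bounds and genes at the floor are included. Just inside the limit lay Adra1d, Thrb and Sfrp2 at 11 units and Pfkfb1 at 12 units. Just outside lay Gpd1, Me3, Adra2b and Adra2c at 10 units. Repeated spots of the control probes gave the day 2 difference with an SD of 0.107, which covers spots within an array and not cultures.

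With chickpea, 48 of the 215 genes (22.3%) had a level at least 2-fold higher, and 44 (20.5%) one at least 2-fold lower, than in control medium, 42.8% in either direction. The median difference of all 215 was 0.08. The shares of 22.3% and 20.5% are the background for every list count below. Highest with chickpea among the genes measured on both arrays were Trib3, Cd36 and Angptl6, followed by the stress-linked genes Hmox1 and Pck2, and Ppargc1a stood at 3.42 or more on its bound. Lowest among the genes measured on both arrays were Agt, Apod, Dcn and C3, all of them genes of secreted proteins, and Cfd (adipsin) stood at -3.25 or lower on its bound.

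**Figure D1:**
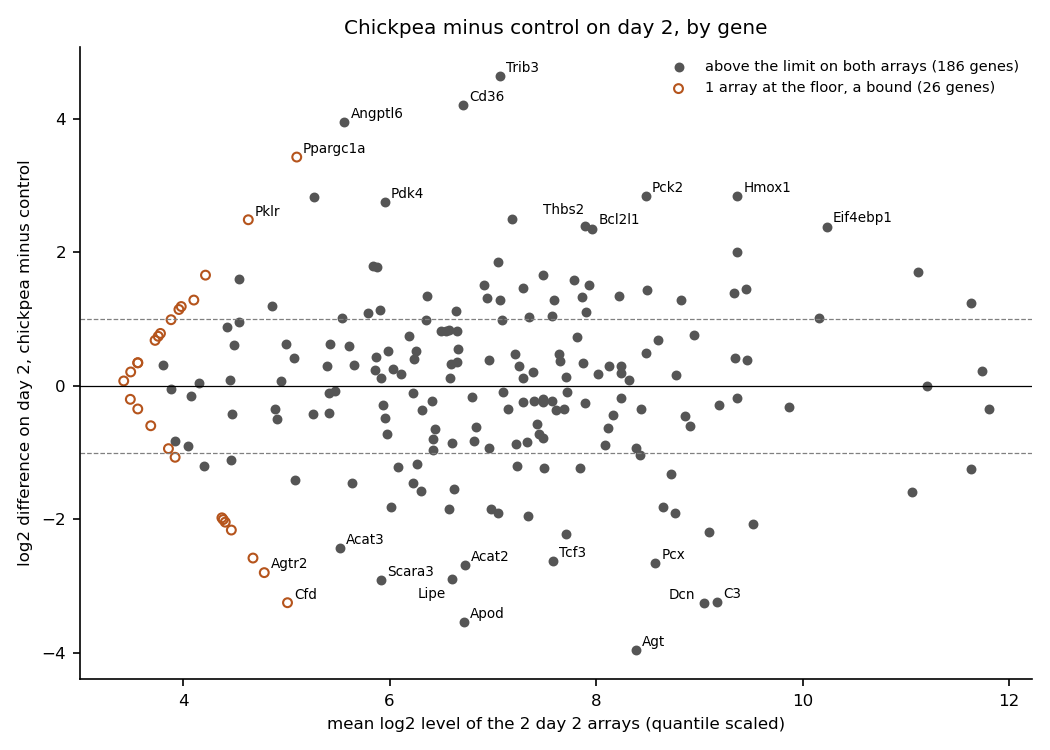
Log2 difference between the chickpea and the control array on day 2 (vertical axis) against the mean log2 level of both arrays (horizontal axis), with 1 point per gene. Filled points are the 186 genes measured on both arrays, and dashed lines mark a 2-fold difference. Open points are the 26 genes with 1 array not above the limit or at the floor. Trib3 stands at the top with 4.64 and Agt at the bottom with -3.96.

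Several genes linked to amino acid or oxidative stress were among the highest. Trib3, a pseudokinase that binds and inhibits Akt, read 1191 units with chickpea, against 36 units in control medium and 309 units before induction. Its difference was 4.64, a 25.0-fold higher level, and the chickpea culture lay above and the control culture below the uninduced cells. Pck2, the mitochondrial phosphoenolpyruvate carboxykinase, read 1559 units with chickpea, against 167 units in control medium (2.84), with 410 units on day 0. Eif4ebp1, which holds back cap-dependent translation, read 4321 units with chickpea and 518 units in control medium (2.38), with 1167 units on day 0. For these 3 genes the order was the same, in units and after scaling, with the chickpea culture highest and the control culture of day 2 lowest. Vegfa, the main angiogenic growth factor, read 2184 units with chickpea and 409 units in control medium (2.00), with 344 units on day 0. Hmox1, heme oxygenase 1, a gene of the oxidative stress response, read 3451 units with chickpea, against 268 units in control medium (2.84) and 1115 units on day 0. Bcl2l1, which restrains apoptosis, read 995 units with chickpea and 116 units in control medium (2.35). These genes were put together after their values had been seen. Of 16 listed amino acid stress genes 2 were on the array (Trib3 and Vegfa), and both were at least 2-fold higher. Of 15 listed genes of the oxidative response 2 were on the array. Hmox1 was higher and Ucp2, a mitochondrial carrier, was lower, with 476 units with chickpea and 953 units in control medium (-1.91).

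The promoters of Trib3 and Pck2 are shown because, among the 12 highest genes, these were the ones with a match to the composite element that ATF4 and C/EBP proteins bind together. The sequences are RefSeq windows of build GRCm38.p6, from 250 bases before to 50 bases after the gene start, printed 5′ to 3′ on the gene's strand, with the match in capitals. Trib3 lies at chr2:152344011-152344310 on the minus strand and Pck2 at chr14:55540016-55540315 on the plus strand.
Trib3: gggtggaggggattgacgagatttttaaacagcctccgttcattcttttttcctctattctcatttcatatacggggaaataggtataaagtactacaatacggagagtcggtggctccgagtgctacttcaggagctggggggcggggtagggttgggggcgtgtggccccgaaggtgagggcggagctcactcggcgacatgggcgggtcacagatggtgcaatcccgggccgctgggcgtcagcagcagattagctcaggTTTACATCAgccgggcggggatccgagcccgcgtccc
Pck2: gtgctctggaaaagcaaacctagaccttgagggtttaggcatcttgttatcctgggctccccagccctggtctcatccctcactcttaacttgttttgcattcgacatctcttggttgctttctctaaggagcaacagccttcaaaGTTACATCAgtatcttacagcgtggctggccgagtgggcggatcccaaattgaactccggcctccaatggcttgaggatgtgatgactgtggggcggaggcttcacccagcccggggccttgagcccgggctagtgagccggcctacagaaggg
The motif searched was TGATGNAAN on both strands, and both matches read as its reverse complement. It was present in 3.95% of the 32851 windows of all mouse genes in the table and in 4.89% of the 225 windows of array genes above the limit. Windows were given for 8 of the 12 highest genes (11 windows, 2 with a match) and for 9 of the 12 lowest (12 windows, 0 with a match). Counted in bases before the gene start, the composite element match began at -13 in Trib3, thus after the start, and at 104 in Pck2. A match is only a string of letters. The antioxidant response element TGACNNNGC matched in 1 window of the highest genes (Bcl2l1) and 1 of the lowest (Tcf3), against 12.4% of all windows. The cAMP response element TGACGTCA and the C/EBP palindrome TTGCGCAA matched in 0 windows of both groups, against 1.79% and 0.183% of all windows. The hexamer AGAACA, bound by the glucocorticoid receptor, matched in 0 windows of the highest genes and 1 of the lowest (Tcf3). It was present in 19% of all windows and in 12.4% of the windows of genes above the limit. With so few windows, these counts show neither excess nor lack.

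Single genes of fuel use, taken from several lists and put together after their values had been seen, were higher with chickpea. The lists themselves were not: fatty acid oxidation and mitochondria had 1 of 7 higher (Pdk4) and 2 lower (Acadm and Ucp2), with a median of -0.23, and glucose transport and glycolysis had a median of -0.48. Cd36, the fatty acid translocase of adipocytes and muscle, read 838 units with chickpea, against 27 units in control medium and 6 units on day 0. Its difference of 4.20 is an 18.4-fold higher level, and it was the only adipocyte marker of the list with a higher level of 2-fold or more. Pdk4, a kinase that switches off pyruvate dehydrogenase, read 348 units with chickpea and 32 units in control medium (2.75), with 70 units on day 0. Pyruvate dehydrogenase genes were not lower: Pdha1 was at 1.45, Dlat at 1.32 and Dld at 1.35, while Pdhb was at 0.30. These 4 were looked up after Pdk4 had been seen. Ppargc1a, a coactivator of mitochondrial and fasting genes, read 276 units with chickpea, against 9 units in control medium, which was under the limit, and 73 units on day 0. Its level was at least 10.7-fold higher with chickpea (log2 3.42 or more). Pklr, the pyruvate kinase of liver and red cells, read 127 units with chickpea and 11 units in control medium, at least 5.60-fold higher. Slc2a1, the basal glucose transporter, read 1133 units with chickpea and 294 units in control medium (1.43). It was the 1 member of the 6 measured genes of glucose transport and glycolysis that was 2-fold higher, and 0 were lower.

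In fatty acid uptake, binding and activation, 2 of 10 members were higher (Cd36 and Acsl4) and 2 were lower (Fabp5 and Acsl1). The 2 acyl-CoA synthetases differed in direction. Acsl4, which prefers arachidonic acid, read 775 units with chickpea and 128 units in control medium (1.58). Acsl1, the main acyl-CoA synthetase of adipocytes, read 218 units with chickpea and 500 units in control medium (-2.21), with 54 units on day 0. Fabp4, the adipocyte fatty acid binding protein, read 1379 units with chickpea and 555 units in control medium, a difference of 0.38, and Fabp5, its relative, read 744 units with chickpea and 2016 units in control medium (-2.06). Lpl, lipoprotein lipase, read 3920 units with chickpea and 2928 units in control medium (0.00).

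Of the 7 measured genes of fatty acid and triglyceride synthesis, 1 was higher and 3 were lower, with a median of -0.37. The median was 0.76 on the deposited values and 0.64 on unscaled intensity, where that of all genes was 0.998 and 0.80. Pcx, pyruvate carboxylase, which supplies oxaloacetate for lipogenesis, read 341 units with chickpea, against 1501 units in control medium and 129 units on day 0 (-2.65). Fasn, fatty acid synthase, read 143 units with chickpea and 264 units in control medium (-1.84), and Srebf1, the lipogenic transcription factor, read 103 units with chickpea and 218 units in control medium (-1.84). Me1, malic enzyme, which makes NADPH, read 458 units with chickpea and 92 units in control medium (1.51). The lipogenic genes were thus not of 1 direction on day 2.

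Secreted and extracellular proteins were found at both ends. Angptl6, an angiopoietin-like factor, read 421 units with chickpea and 11 units in control medium (3.95), with 33 units on day 0, and its control value lay just above the limit. Thbs2, thrombospondin 2, a matrix protein that restrains angiogenesis, read 984 units with chickpea, against 136 units in control medium and 1937 units on day 0 (2.39). In the VEGF and angiogenesis list 3 of 7 members were higher (Vegfa, Vegfb and Thbs2) and 2 were lower (Vegfc and Vegfd), with a median of 0.83. Among all 215 genes 22.3% were higher and 20.5% lower. Hbegf, an EGF receptor ligand, read 42 units with chickpea and 2 units in control medium, at least 2.28-fold higher. Crp read 25 units with chickpea and 3 units in control medium, at least 1.72-fold higher. Both bounds depend on the settings. Under control gene scaling Hbegf was at 0.87 and Crp at 0.18, and with a limit of 20 units they were at 0.38 and 0.0.

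Genes of insulin signalling were more often higher than lower at the 2-fold cut, but 10 members lay above 0 and 8 below. Of 18 measured members 7 were higher, among them Insr, Pik3cb, Pdpk1, Gsk3b and Cap1, and 1 was lower (Foxc2), with a median of 0.23. The background is 22.3% higher and 20.5% lower among all 215 genes. Insr, the insulin receptor, read 83 units with chickpea, against 13 units in control medium and 43 units on day 0 (1.61). Irs1, its first substrate, read 51 units with chickpea and 15 units in control medium (0.88), with 123 units on day 0. Pik3cb, a catalytic subunit of phosphoinositide 3-kinase, read 38 units with chickpea and 8 units in control medium, at least 2.21-fold higher. Pdpk1, a kinase that carries the signal onward, was at 1.03. Under control gene scaling the median of the list was 0.10. Of Insr, Pik3cb, Pdpk1, Gsk3b and Cap1, Insr alone stayed at least 2-fold higher under all 8 scalings. In Ras and MAP kinase signalling 2 of 12 members were higher, among them Mapk8, or JNK1, by at least 3.15-fold, and 0 were lower. In the AMPK pathway 0 of 6 members differed by 2-fold.

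Genes listed for the inducers, both carriers of their signals (such as Nr3c1 and Creb1) and responding genes, were split. Of 22 listed genes 10 were on the array, and Fkbp5, Tsc22d3, Per1 and Sgk1 were among those absent. Of these 10 members 5 were higher with chickpea (Nr3c1, Hsd11b1, Creb1, Ppargc1a and Pdk4) and 2 were lower (Rgs2 and Cebpd), with a median of 0.67. Among all 215 genes 22.3% were higher and 20.5% lower. Nr3c1, the glucocorticoid receptor, read 200 units with chickpea, against 54 units in control medium and 209 units on day 0 (1.13). Hsd11b1, which regenerates active glucocorticoid, read 464 units with chickpea, against 94 units in control medium and 4 units on day 0 (1.29). Creb1, the cAMP response factor, read 247 units with chickpea and 33 units in control medium (1.79). Rgs2, a G protein regulator, read 528 units with chickpea and 1830 units in control medium (-2.18), with 780 units on day 0. Abca1, a cholesterol exporter, read 48 units with chickpea and 10 units in control medium, at least 2.44-fold higher.

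Several secreted adipocyte proteins were lower. The list of adipokines and secreted proteins has 15 measured members and includes the receptors Adipor1 and Adipor2. Of these 15, 7 were at least 2-fold lower (Agt, Apod, C3, and as bounds Cfd, Adipoq, Hp and Retn). Higher were 3, among them Mif and Nampt, and the median was -0.60 (0.07 on the deposited values). Among all 215 genes 20.5% were lower. Agt, angiotensinogen, read 195 units with chickpea, against 1521 units in control medium and 115 units on day 0. Its difference of -3.96 means a 15.5-fold higher level in control medium, and the chickpea value was close to that of the uninduced culture. C3, complement component 3, read 423 units with chickpea, against 2113 units in control medium and 688 units on day 0 (-3.24). Apod, apolipoprotein D, read 56 units with chickpea, against 387 units in control medium and 3254 units on day 0 (-3.54), so both cultures lay below the uninduced one. Cfd, or adipsin, read 2 units with chickpea and 106 units in control medium, a difference of -3.25 or lower. Adipoq (adiponectin) read -1 units with chickpea and 49 units in control medium, Hp (haptoglobin) read 5 units with chickpea and 47 units in control medium, and Retn (resistin) read 0 units with chickpea and 55 units in control medium. Their differences were -2.04, -2.00 and -1.98 or lower, since none was above the limit on the chickpea array. On day 0 these 4 genes read between -1 and 4 units.

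The lipid droplet and lipolysis genes on the array were lower or level. Lipe, hormone-sensitive lipase, read 70 units with chickpea, against 344 units in control medium and 33 units on day 0 (-2.89). Plin1, perilipin 1, which coats the droplet, read 3 units with chickpea and 63 units in control medium, a difference of -2.16 or lower. Pnpla2, adipose triglyceride lipase, read 695 units with chickpea and 398 units in control medium (0.09). Thus 2 of 3 measured members were lower, against 20.5% of all 215 genes.

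Among the other lower genes, Agtr2 and Ppp1r1b were seen in control medium alone. Agtr2, the type 2 angiotensin II receptor, read 0 units with chickpea and 77 units in control medium (-2.80 or lower). Ppp1r1b, a phosphatase regulator, read 1 unit with chickpea and 27 units in control medium (-1.07 or lower). Scara3, a scavenger receptor, read 34 units with chickpea and 199 units in control medium (-2.91). The thiolases Acat2 and Acat3 read 87 and 27 units with chickpea, against 283 and 112 units in control medium (-2.68 and -2.43). They are close relatives, so their probes may share signal, and they are not independent. A probe named Tcf3 read 185 units with chickpea and 618 units in control medium (-2.62), but different genes have carried that symbol, so its identity is uncertain.

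Most measured matrix genes of the preadipocyte were lower after quantile scaling. Of 6 measured members 4 were lower (Dcn, Sparc, Lox and Dpt) and 1 was higher (Thbs2), with a median of -1.23. Among all 215 genes 20.5% were lower and 22.3% higher. The median was 0.0063 on the deposited values and -0.25 on unscaled intensity, against 0.998 and 0.80 for all genes, and of the 4 lower genes Dcn alone stayed 2-fold lower under all 8 scalings. Dcn, decorin, a collagen-binding proteoglycan, read 368 units with chickpea, against 2057 units in control medium and 5759 units on day 0 (-3.25). Sparc, a collagen-binding glycoprotein, read 1952 units with chickpea, against 3647 units in control medium and 12852 units on day 0 (-1.59). Dlk1, an inhibitor of adipogenesis made by preadipocytes, read 3553 units with chickpea, against 5457 units in control medium and 14940 units on day 0 (-1.24). Lox read 330 units with chickpea, 455 units in control medium and 3393 units on day 0 (-1.23). For these 4 genes the chickpea culture was lowest and the uninduced culture highest, in units and after scaling. Sfrp2 and Gata2, further preadipocyte genes, read 4 and 7 units with chickpea and 11 and 8 units in control medium, against 322 and 53 units on day 0, and no day 2 difference was measured.

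Among the transcription factors of adipogenesis, Cebpa and Cebpb lay near 0 after quantile scaling. Cebpb read 6293 units with chickpea, against 2830 units in control medium and 1227 units on day 0 (0.22). Cebpa read 558 units with chickpea, against 334 units in control medium and 141 units on day 0 (-0.19). Pparg, without which no fat cell forms, read 295 units with chickpea, against 289 units in control medium and 142 units on day 0 (-0.84). Over 8 scalings the Pparg difference ran between -0.91 and 0.43, so its direction depends on the scaling. The same held for Cebpb, between -0.04 and 1.27, and Cebpa, between -0.45 and 0.86. Cebpd read 14 units with chickpea and 30 units in control medium (-1.20). Of 11 measured members of this list 2 were higher (Ppargc1a and E2f5) and 3 were lower (Cebpd, Srebf1 and Rxra), with a range from -1.84 to 3.42 or more and a median of 0.22. Ccl2, a chemokine of preadipocytes, read 297 units with chickpea and 92 units in control medium (0.55). Il6 read 14 units with chickpea and 1 unit in control medium, at least 1.16-fold higher after quantile scaling. The Il6 difference was 0.0 on the deposited values and under median, 75th percentile and control gene scaling. It was also 0.0 with a limit of 20 units, so no Il6 difference is established.

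The labels call both cultures adipocytes. The array carried 15 adipocyte markers, and 7 of them passed the limit with chickpea and 11 in control medium. Their summed intensities were 7764 units with chickpea, 5164 units in control medium and 2548 units on day 0. These sums, and those of the preadipocyte markers below, are unscaled and add up different probes. The chickpea array was also the brighter one (median metabolic gene 83 against 47 units), so the sums do not compare marker levels between the media. Among the 11 measured markers 1 was higher (Cd36), 5 were lower (Adipoq, Cfd, Retn, Plin1 and Lipe) and the median was -0.84. Among all 215 genes 22.3% were higher and 20.5% lower. The difference in late adipocyte genes was thus already present on day 2 for the 5 lower markers, 4 of which are bounds. After quantile scaling Fabp4, Lpl, Cebpa and Pnpla2 had differences between -0.19 and 0.38. Preadipocyte and fibroblast markers summed to 7809 units with chickpea, 12158 units in control medium and 42268 units on day 0. Of 9 measured markers 5 were lower with chickpea and 1 was higher (Thbs2), while Sfrp2 was at the floor on both arrays. The median of the preadipocyte markers was -1.23. On the deposited values, where the median of all genes was 0.998, these medians were 0.43 for the adipocyte and 0.00 for the preadipocyte markers, and on unscaled intensity, with 0.80 for all genes, they were 0.03 and -0.04. Both marker lists thus lay below the median of all genes under these 3 scalings, but their sign depends on the scaling. How far the share of cells that had begun to differentiate moved with the gene differences was not tested, and in bulk RNA fewer cells of a type and less RNA per cell cannot be told apart. Markers of macrophages (Ccr2 and Tnf), muscle (2 genes) and hepatocytes (5 genes) were all below the limit on both arrays. Of 2 endothelial markers Kdr passed it, with 15 units with chickpea and 8 units in control medium.

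**Figure D2:**
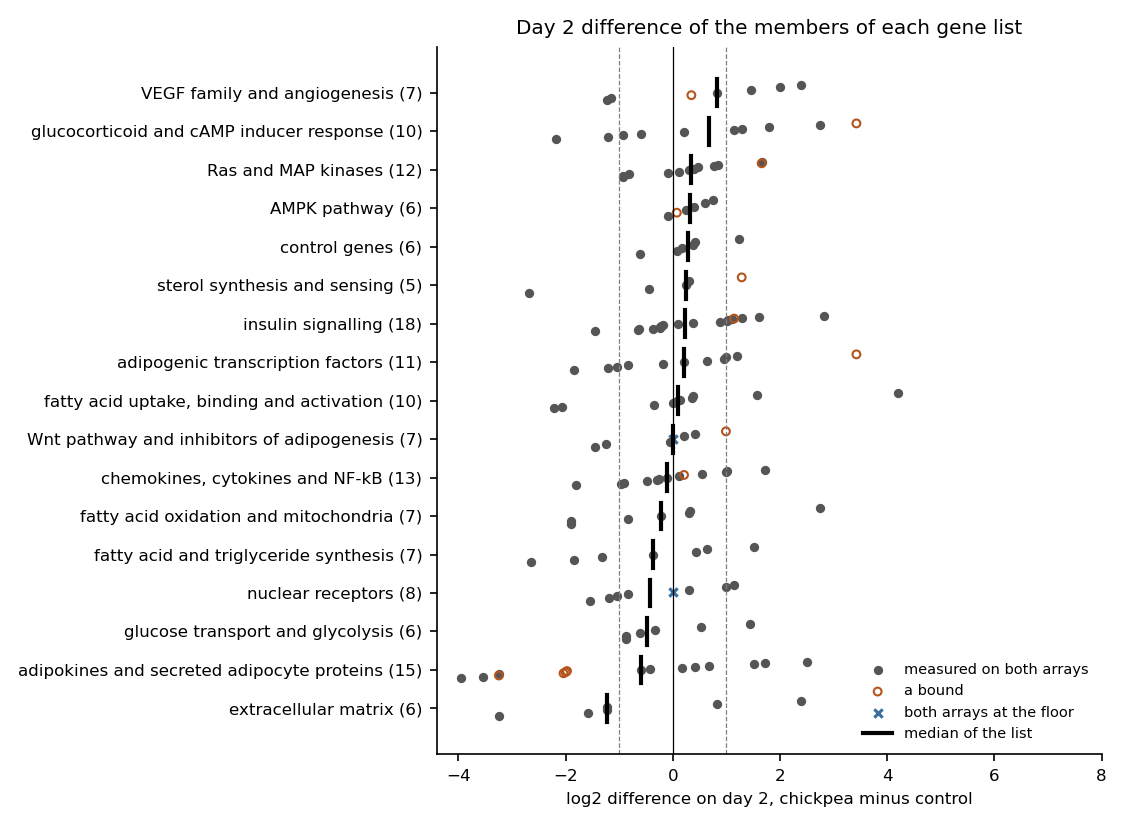
Log2 difference between chickpea and control on day 2 (horizontal axis) for the members of each gene list with at least 5 measured genes (rows, with the number of members in brackets). Filled points are measured differences, open points bounds, crosses genes at the floor on both arrays, black bars medians, and dashed lines mark 2-fold. The extracellular matrix list has the lowest median, -1.23, and the VEGF list the highest, 0.83, against 0.08 for all genes.

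The remaining lists are read against 22.3% higher and 20.5% lower among all 215 genes. Chemokines, cytokines and NF-kB had 2 of 13 higher (Mif and Jak2) and 1 lower (Stat3). Nuclear receptors had 1 of 8 higher (Nr3c1) and 3 lower (Rara, Rxra and Vdr), inhibitors of adipogenesis and the Wnt pathway had 2 of 7 lower (Dlk1 and Tcf7l2), and sterol genes had 1 of 5 higher (Abca1) and 1 lower (Acat2). In the cell cycle list of 4 genes E2f5 was higher and Ccnd1, cyclin D1, was lower (-1.95). Many genes are in more than 1 list.

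The scaling sets how many genes are counted on each side. The deposited values are scaled to Gapdh, and on that scale other control probes were higher with chickpea. Rps18 was 1.72 ± 0.02 higher (SD over 4 spots), Actb 1.64 ± 0.06 and Rplp0 0.995 ± 0.05, while Pgk1 was at -0.03 ± 0.09. Gapdh itself read 13559 units with chickpea and 15916.5 units in control medium, a difference of -0.61 after quantile scaling. On the deposited scale the median gene was 0.998 higher with chickpea, and 107 genes were higher and 20 lower. The split was 91 and 25 on unscaled intensity, with a median of 0.80, and 32 and 52 with 75th percentile scaling, with a median of -0.16. Under all 8 scalings tried, 32 of the 48 higher genes stayed at least 2-fold higher, among them Trib3, Cd36, Hmox1, Pck2, Insr and Hsd11b1, and all 48 kept their sign. Of the 44 lower genes 20 stayed at least 2-fold lower, among them Agt, Apod, Dcn, C3, Cfd, Lipe, Adipoq and Retn. The sign held for 42 of the 44, the exceptions being Dpt and Rxra on the deposited values. On the deposited values, the scaling that brought them nearest to 0, Lox, Acly, Vegfc and Vegfd were at -0.06, -0.02, -0.17 and -0.05.

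**Figure D3:**
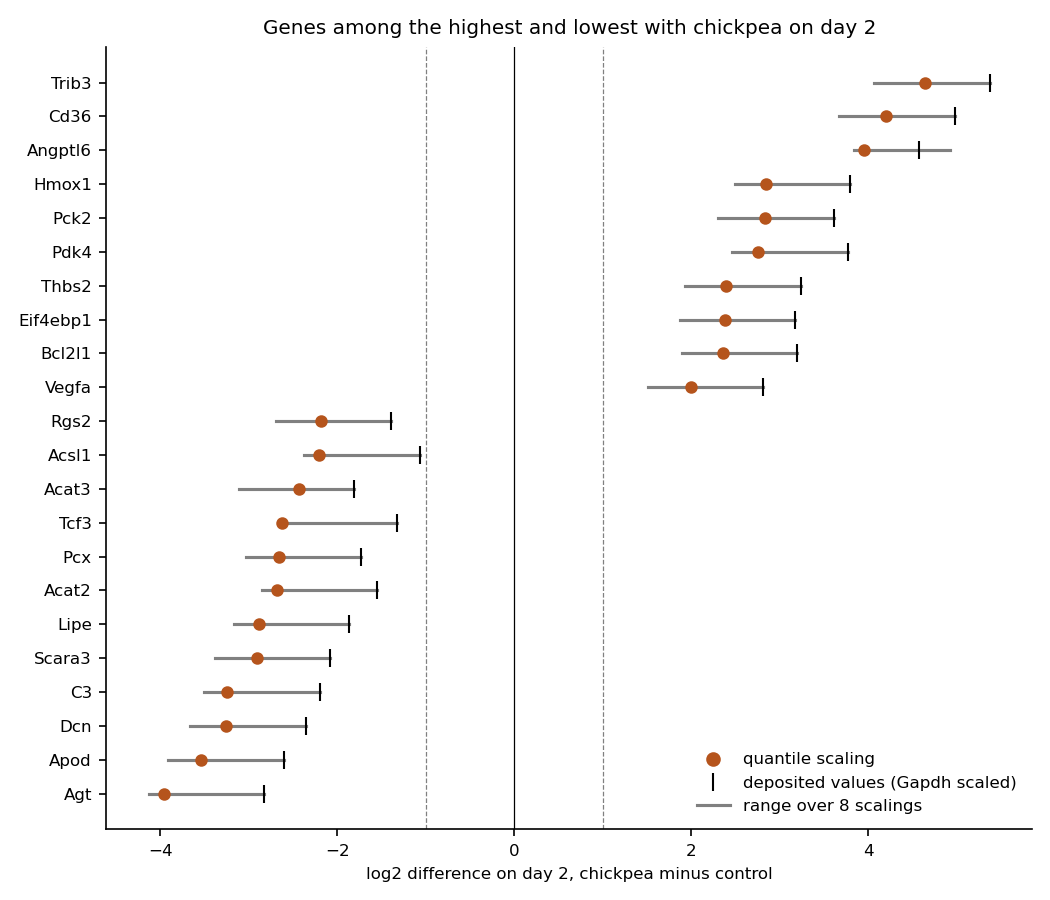
Log2 difference between chickpea and control on day 2 (horizontal axis) of the genes reported here among the 12 highest and the 12 lowest measured on both arrays (rows). Points are quantile scaling, ticks the deposited Gapdh-scaled values, and grey lines the range over 8 scalings. No line crosses 0, and Trib3 spans 4.07 to 5.37 while Agt spans -4.13 to -2.83.

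The day 2 response was set beside the same contrast on the later days, which share no array with it. At a fold of 2 the chickpea array was higher for 52 of 231 genes (22.5%) on day 4, 45 of 235 (19.1%) on day 6 and 33 of 236 (14%) on day 8, and lower for 39 (16.9%), 33 (14%) and 31 (13.1%) genes. Of the 48 genes higher on day 2, 34 were also higher on day 4 (70.8% of the day 2 genes and 65.4% of the day 4 genes). For day 6 the shared genes were 24 (50% and 53.3%), and for day 8 they were 6 (12.5% and 18.2%). Of the 44 lower genes, 28 stayed lower at day 4 (63.6% and 71.8%), with 17 at day 6 (38.6% and 51.5%) and 11 at day 8 (25% and 35.5%). Higher on all 4 days were 5 genes, among them Cap1, Mif, Ppargc1a and Vegfb. Lower on all 4 days were 11 genes, namely Acsl1, Adipoq, Apod, C3, Cfd, Dpt, Hp, Lipe, Pcx, Plin1 and Retn.

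For the stress genes the gap between the media was smaller on day 8 than on day 2. Trib3 differences were 4.64, 2.12, 0.35 and -1.84 on days 2, 4, 6 and 8. With chickpea Trib3 read 1191, 905, 663 and 218 units on these days, and in control medium it read 36, 315, 1164 and 2184 units. Pck2 differed by 2.84, 2.69, 1.62 and 0.20, and Hmox1 by 2.84, 3.19, 2.82 and 0.61. Agt ran the other way, with -3.96, -2.42, -0.82 and 0.97. Thbs2 was higher on day 2 (2.39) and day 8 (1.37), and level on days 4 and 6 (-0.17 and -0.07). By day 8 the difference was at least 2-fold in the opposite direction for 3 of the higher genes (Abca1, Hsd11b1 and Trib3) and 3 of the lower ones (Rab3il1, Rgs2 and Ucp2).

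Whether the day 2 difference itself departed from the mean of days 4, 6 and 8 was tested with limma on the 8 arrays of both media, with day as a block and 2 residual degrees of freedom. The test sets 1 pair of day 2 arrays against 3 later pairs, which are not replicates of each other. Of 239 genes 6 (2.51%) passed upward and 0 downward, with 64 at an unadjusted p under 0.05. The day 2 difference was measured on both arrays for 3 of the 6, namely Cd36, Hsd11b1 and Fabp4. Cd36 was 4.40 ± 0.30 (SE) higher on day 2 than later (limma adjusted p = 0.0325), since its difference was -0.49, 0.00 and -0.11 on days 4, 6 and 8. With chickpea Cd36 read 838 units on day 2 and 389 units on day 4, and in control medium it read 27 units on day 2 and 1084 units on day 4. Hsd11b1 was 3.21 ± 0.22 higher on day 2 (adjusted p = 0.0325), with a later difference of -1.83, -2.05 and -1.89. Fabp4 was 2.77 ± 0.24 higher on day 2 (adjusted p = 0.0417), with a later difference of -2.22, -2.54 and -2.40. Gpd1, Hp and Retn also passed, but Gpd1 was not measured on day 2 (1 unit with chickpea, 10 units in control medium), and Hp and Retn are bounds, so for these 3 no day 2 difference stands behind the test. The calls do not hold without any 1 of the later days, when 0 genes passed (21 to 66 at an unadjusted p under 0.05, limma with 1 residual degree of freedom). Cd36 and Gpd1 passed under every scaling tried in this test.

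**Figure D4:**
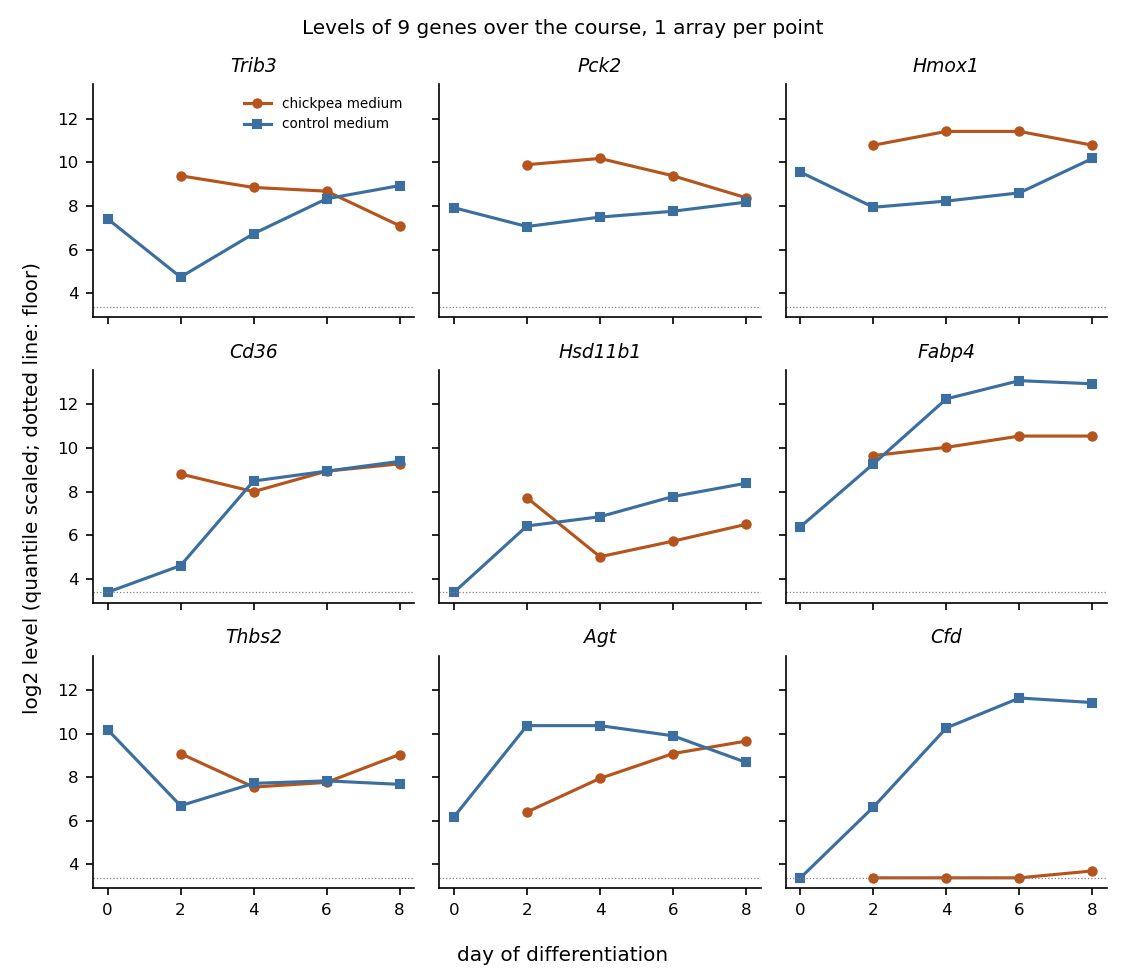
Log2 level after quantile scaling (vertical axes) of 9 genes by day of differentiation (horizontal axes), with chickpea medium as circles from day 2 and control medium as squares from day 0, 1 array per point. The dotted line is the floor. Trib3, Pck2, Hmox1 and Cd36 are far apart on day 2 and close or crossed by day 8, Agt is lower with chickpea on day 2 and higher on day 8, and Cfd stays at or near the floor with chickpea.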

How the data were processed

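RNA of 9 cultures was labelled with Alexa Fluor 555 and hybridised on 1-colour arrays, per the labels. Intensity of each spot, median minus local background, was read by GenePix Pro 6.1.0.4 software, as per the file headers. The deposited value table holds linear intensity. The authors' steps from scan to table are not given in the sources used here. In the values, each entry equals a spot's intensity plus 2 or 3 units, scaled so that the Gapdh spots of each spot set average 10000. All 354 entries of each array matched at least 1 spot (relative tolerance 1e-06), and an entry was named by a spot that matched on all 9 arrays. The match, not a label, ties samples to wells and names the entries. The 3 wells without a sample name were not used.

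Deposited values were converted to log2, repeated spots averaged and the 9 arrays quantile scaled. Genes needed over 10 units, which 3 of 369 empty and negative spots also passed. Values were floored at log2 3.39. Day 2 has 1 array per medium and no test. The comparison with later days used limma 3.58.1 (lmFit, eBayes, R 4.3.3), two-sided, with Benjamini-Hochberg adjustment over 239 genes and a threshold of 0.05. Named are the 12 largest differences each way, up to 8 genes above the limit on 1 array alone each way, those past the test, and genes fixed by name. Of the genes that the rule names, some are not reported here. Others in the text were chosen after their values were seen. The members, the 21 gene lists and the rule were chosen with earlier results of these data known. Of the array's names, 13 were updated to current symbols. The number of arrays limits the precision.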

Additional observations from a re-analysis of the deposited data

Results flagged for a closer look

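For 6 genes the chickpea minus control difference on day 2 departed from its mean on days 4, 6 and 8 in the limma test. The departure, on the log2 scale, was 4.40 for Cd36, 3.21 for Hsd11b1 and 2.77 for Fabp4, each higher on day 2. The test also gave 5.58 for Gpd1, 4.07 for Retn and 3.15 for Hp, but their day 2 difference was not measured (Gpd1) or is a bound, so these are not measured departures. Cd36 and Hsd11b1 were higher with chickpea on day 2 (4.20 and 1.29), and Fabp4 was nearly level (0.38). On days 4, 6 and 8 Hsd11b1 and Fabp4 were lower with chickpea and Cd36 was level or slightly lower. Gpd1, glycerol-3-phosphate dehydrogenase, read 0, 1 and 7 units with chickpea on days 4, 6 and 8, against 1368, 2420 and 2708 units in control medium. Retn and Hp were likewise under the limit on all 4 chickpea arrays, so for these 3 genes the values differ between days in the control arrays. With 2 residual degrees of freedom the spread rests on 3 later days, set against 1 pair of day 2 arrays.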

How the results depend on the processing

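Each medium and day had 1 array, so no day 2 difference can be separated from culture or array. No paired analysis was possible because, within day 2, each medium had 1 array. The limma test over days 2 to 8 pairs the media within each day. With the limit at 10 units, 26 differences are bounds, and their size depends on the scaling and the limit. With a limit of 20 units Mapk8 was at 0.85 and Abca1 at 0.55. The counts of 48 higher and 44 lower genes, with a median of 0.08, were 107, 20 and 0.998 on the deposited values and 91, 25 and 0.80 on unscaled intensity. At a fold of 3 they were 21 and 28. Control gene scaling moved the median to -0.032, and 75th percentile scaling to -0.16. Under the other settings run the counts stayed within 1.5 times. Quantile scaling within each spot set, added after seeing the data, gave 50 and 44. The 6 genes of the limma test were 105 on the deposited values (136 at an unadjusted p under 0.05), 3 with median scaling, and 2 each with control gene scaling, 75th percentile scaling and scaling within spot sets. The test gave 0 without day 4, day 6 or day 8 (66, 21 and 48 at an unadjusted p under 0.05). Adjusted p of the 6 genes reached 0.378 over the 13 settings. For the 59 named genes, 306 of 531 values moved by more than the spot SD and 0 called values changed sign.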
